A study of Drosophila melanogaster with 4 samples.

Results

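Glutathione synthesis and redox defence were followed through 4 genes, Gclc, Gclm, Sod2 and Trx2, in the dissected gut of 3- to 5-day-old females of the fruit fly (*Drosophila melanogaster*). The members were all transcripts of these genes in the authors' deposited table, found by transcript identifier, which gave 5 of the 1761 listed transcripts: 2 of Gclc and 1 each of the other genes. RNA was compared between a kdm5 mutant whose alleles the labels give as k6801 and 10424 (2 libraries) and the strain w1118, a white-eyed laboratory stock that served as wild type (2 libraries). Every library came from RNA of 30 pooled intestines, with no treatment named in the labels. Kdm5 encodes a histone H3 lysine demethylase. The labels do not say whether the genotypes share a genetic background, so an effect of kdm5 and a difference in background cannot be told apart. Nor do they say whether libraries of 1 genotype came from separate crosses, so the tests see only the variation among these 4 libraries, which may be technical. The study's design asks which genes differ in the intestine between the genotypes.

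Glutathione is a tripeptide thiol that cells use to reduce peroxides and to conjugate reactive compounds. Its rate-limiting step, the joining of glutamate and cysteine, is carried out by glutamate-cysteine ligase, a pair of a catalytic subunit (Gclc) and a modifier subunit (Gclm) that raises the activity of the catalytic one. Sod2 is the manganese superoxide dismutase of the mitochondrial matrix, which turns superoxide into hydrogen peroxide. Trx2 is a cytosolic thioredoxin, a small protein that reduces disulphides and passes electrons to peroxiredoxins; flies have no glutathione reductase, and thioredoxin also reduces oxidised glutathione there. In the fly gut, where enterocytes meet reactive oxygen made against microbes, the transcription factor CncC and its inhibitor Keap1 control many genes of this kind, Gclc among them.

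Of the 5 transcripts, those of Sod2, Gclm and Trx2 rose in the mutant, Sod2 4.35-fold, Gclm 2-fold and Trx2 1.97-fold in mean TPM (n = 2 libraries per group). The Gclc transcripts went in opposite directions: the more abundant one (FBtr0340139) stood at 17.5 ± 4.22 TPM in the mutant against 42.5 ± 9.49 TPM in w1118, and the scarcer one (FBtr0340138) at 2.92 ± 0.0445 against 1.05 ± 0.155 TPM (SD, n = 2). TPM is a share of the transcripts of a library, corrected for transcript length, so levels can be set beside each other across genes. In bulk RNA, fewer cells of a type and less RNA per cell cannot be told apart.

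All p-values in the authors' deposited table were under 0.05, so its 1761 transcripts are a selection made on this same comparison. The genotypes were tested with limma on log2(TPM + 1), with the Benjamini-Hochberg adjustment over the table (list-wide) and, more strictly, with all 35694 annotated transcripts counted as tests (annotation-wide). The variances were estimated from the selected transcripts only, so neither adjustment fully undoes the selection. The words rose and fell are kept for transcripts that passed the stricter test at adjusted p under 0.05. List-wide all 5 members passed, 4 as higher and 1 as lower, where 77.1% of the whole table did, 53.7% as higher and 23.4% as lower. Annotation-wide 3 members passed, all higher, where 30.7% of the table did, 22.0% as higher and 8.69% as lower. With either mutant library or either w1118 library left out, 0 of the 5 passed annotation-wide by limma, and 5, 5, 3 and 4 had unadjusted p under 0.05 without mutant replicate 1, mutant replicate 2, w1118 replicate 1 and w1118 replicate 2. Gclm and Trx2 passed narrowly, and scaling to the TPM outside the table ended both calls (annotation-wide limma adjusted p = 0.14 each), as did a constant prior variance (0.29 and 0.30) and a filter at a mean of 1 TPM (0.055 and 0.050, just above the threshold). Sod2 passed under each of these settings. The mutant and w1118 values of all 5 members did not overlap, as held for 94.8% of the table.

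The listed transcripts held 15.3% to 15.6% of 1000000 TPM in the mutant libraries and 23.5% to 23.9% in w1118. Sequencing depth is unknown, as TPM does not keep it. The listed Kdm5 transcript (FBtr0307071) had 0.0768 and 0.0361 TPM in the mutant and 1.43 and 0.639 TPM in w1118, in the direction of the labels (limma list-wide adjusted p = 0.0054, annotation-wide 0.11). One label field names the source as the whole animal, and the tissue field names the intestine. Of 13 enterocyte marker genes 6 were listed, and they went both ways. The protease Jon99Ciii fell, from 2496 and 1645 TPM in w1118 to 501 and 562 TPM in the mutant, and made up most of the list's summed level (765 and 894 TPM for mutant libraries beside 2988 and 1995 TPM for w1118 ones). Myo61F rose from 8.33 ± 0.0889 to 25.6 ± 4.49 TPM (SD, n = 2), nub was higher, and Myo31DF, lab and LManII were lower, without passing annotation-wide.

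**Figure D1:**
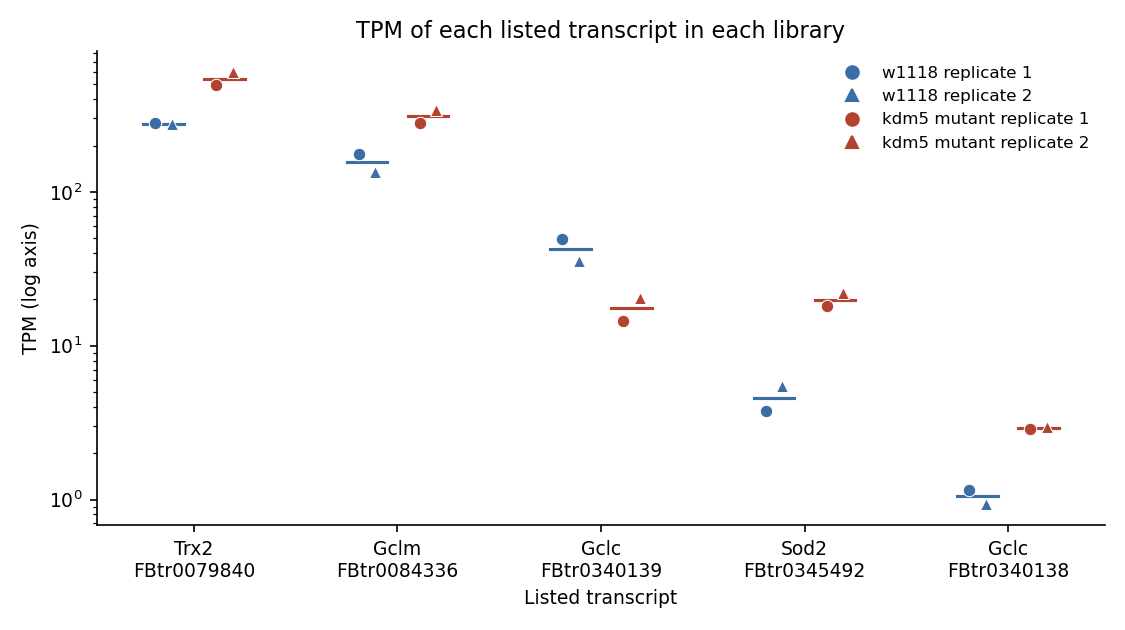
TPM (log axis) of the 5 listed transcripts in each of the 4 libraries; circles are replicate 1, triangles replicate 2 and horizontal lines group means (n = 2). Both mutant values lie above both w1118 values for Trx2, Gclm, Sod2 and Gclc FBtr0340138, and below them for Gclc FBtr0340139.

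The catalytic subunit gene Gclc lies on the minus strand of the X chromosome, and 4 isoforms of it are annotated (BDGP6.54, which may not be the build the authors used). All 4 share 1 coding sequence of 717 codons without the stop, so the listed isoforms differ in untranslated parts only. FBtr0340139 (X, 8102582 to 8107814; 3231 bases) starts from its own first exon, and 125 of its bases are in no other isoform. FBtr0340138 (X, 8102181 to 8116147; 4238 bases) starts at the most upstream site and ends farthest downstream, with a 5′ untranslated region of 733 bases against 127 and a 3′ untranslated region of 1351 bases against 950. It holds 812 bases of its own. These stretches can be used to tell the pair apart, as can first-exon bases that FBtr0340138 shares with the isoform FBtr0071107 but not with FBtr0340139. The division of the shared reads between the pair is an estimate by the authors' pipeline.

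FBtr0340139, the more abundant Gclc isoform, was measured at 14.5 and 20.5 TPM in mutant replicates 1 and 2, and at 49.2 and 35.8 TPM in w1118 replicates 1 and 2. Both mutant libraries were lower than both w1118 libraries, with the lower w1118 value 1.75 times the higher mutant value. The log2 change was -1.23 ± 0.31 (SE), with limma adjusted p = 0.0026 list-wide and 0.052 annotation-wide. The mean was 2.43-fold lower, and between 2.04- and 2.93-fold lower when 1 library was left out. The list-wide adjusted p was 0.050 without mutant replicate 1 (just above the threshold of 0.05) and 0.11 without w1118 replicate 1. With a pseudocount of 0.1 or 0.5 in place of 1 the annotation-wide adjusted p was 0.044 or 0.046, so that call depends on the pseudocount. In the authors' deposited table its p of 0.00064 ranked 82nd of 1761 from the smallest, while Sod2 ranked 447th, FBtr0340138 690th, Gclm 1392nd and Trx2 1534th (p of 0.032 and 0.039 for the last pair).

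FBtr0340138, the isoform with the distal ends, was measured at 2.89 and 2.95 TPM in the mutant and at 1.16 and 0.939 TPM in w1118. Both mutant libraries were higher, and they differed from each other by a ratio of only 1.02. The log2 change was 0.94 ± 0.32 (SE), a scale that understates the change of so low a transcript, with limma adjusted p = 0.016 list-wide and 0.32 annotation-wide. The ratio of means was 2.79. Without w1118 replicate 1 or w1118 replicate 2 the list-wide adjusted p was 0.12 or 0.16.

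Within a library the Gclc isoforms therefore stood in different proportion in the genotypes. FBtr0340138 held 16.6% and 12.6% of the listed Gclc TPM in the mutant libraries and 2.3% and 2.56% in w1118. All of the mutant shares lay above all of the w1118 shares, with means of 14.6% ± 2.83 and 2.43% ± 0.183 (SD, n = 2). The log2 ratio of FBtr0340138 to FBtr0340139 was higher by 2.77 in the mutant, with an exact two-sided permutation p of 0.333, the smallest that 2 libraries against 2 can give. As the isoforms differed in opposite directions without overlap, the order of shares and ratios and this p were fixed and add no support. FBtr0340139 remained the more abundant of the pair in every library, at 5.03 and 6.94 times FBtr0340138 in the mutant and 42.5 and 38.1 times in w1118. Of 167 genes with at least 2 listed transcripts, 20 had both a higher and a lower one, Gclc among them.

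Summed over both listed isoforms, Gclc stood at 17.4 and 23.4 TPM in the mutant and at 50.4 and 36.7 TPM in w1118. The sum was lower in both mutant libraries, 2.13-fold by the means, most of it being FBtr0340139. The exact two-sided permutation p was again 0.333. The isoforms FBtr0071107 and FBtr0071108 were absent from the table, and the total for Gclc is therefore unknown.

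**Figure D2:**
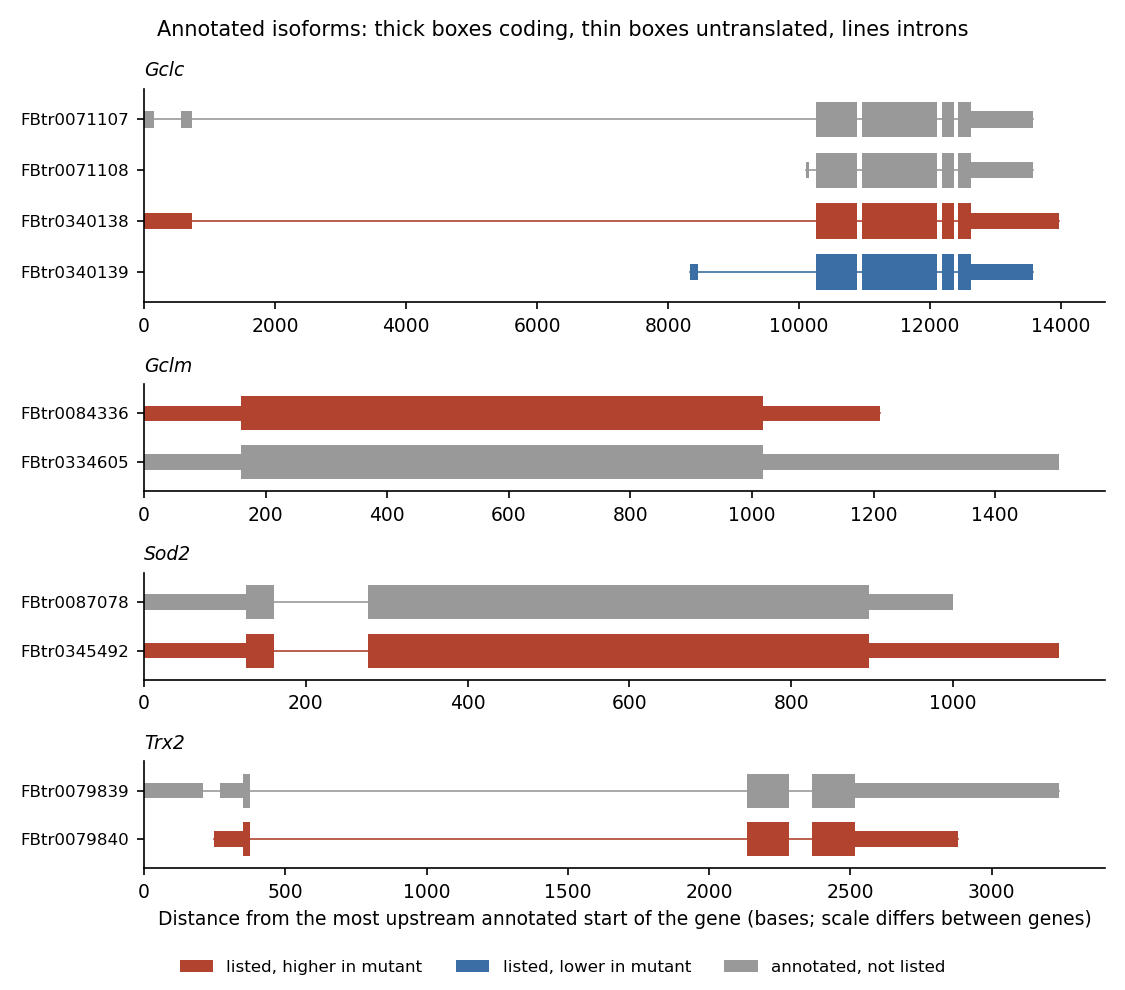
Annotated isoforms of Gclc, Gclm, Sod2 and Trx2 drawn 5′ to 3′ against the distance in bases from the most upstream start of each gene; thick boxes are coding, thin boxes untranslated, lines introns, and colours mark listed isoforms that stood higher (red) or lower (blue) in the mutant. Isoforms of 1 gene share their coding parts and differ in their untranslated parts.

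Gclm, the modifier subunit, lies on chromosome arm 3R (minus strand) and has no intron; its product has 285 codons. The listed isoform, FBtr0084336 (3R, 22685300 to 22686510; 1211 bases), is the shorter of 2 annotated, the other reaching 294 bases farther at the 3′ end. It was measured at 282 and 341 TPM in mutant replicates 1 and 2 and, in the same order, at 176 and 135 TPM in w1118. Both mutant libraries were higher, the lower one 1.6 times the higher w1118 library. The log2 change was 1.0 ± 0.25 (SE; limma adjusted p = 0.0024 list-wide and 0.048 annotation-wide). The fold of means ran from 1.77 to 2.3 when 1 library was left out, and without mutant replicate 2 the list-wide adjusted p was 0.062. No base of FBtr0084336 is absent from the other isoform (FBtr0334605), so reads cannot be assigned to it alone.

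The ratio of the ligase's subunits was taken over the listed isoforms. Listed Gclm stood at 16.2 and 14.6 TPM per TPM of listed Gclc in the mutant libraries and at 3.5 and 3.69 in w1118. The ratio was higher in both mutant libraries, 15.4 ± 1.16 against 3.59 ± 0.135 (SD, n = 2), a 4.28-fold difference of means with an exact two-sided permutation p of 0.333, the smallest possible. As listed Gclm was higher and listed Gclc lower without overlap, the order of the ratios and this p were fixed and add no support. The ratio varied less between libraries of 1 genotype than either subunit did, since Gclm and Gclc were both higher in the second mutant library than in the first and both higher in the first w1118 library than in the second.

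**Figure D3:**
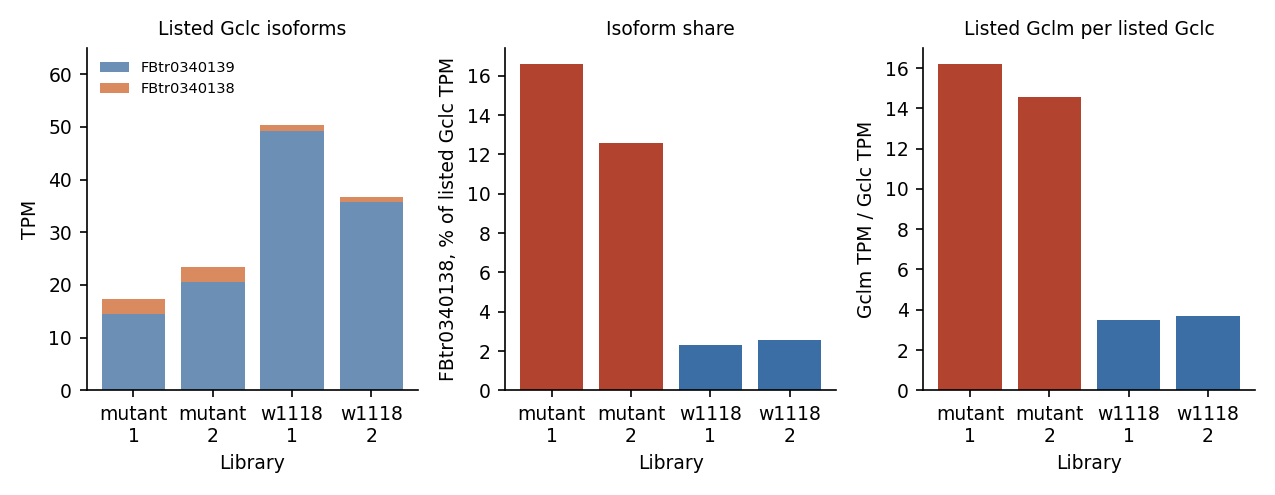
Left, TPM of the listed Gclc isoforms stacked by library; middle, the percentage of that sum held by FBtr0340138; right, the ratio of listed Gclm TPM to listed Gclc TPM. Bars start at 0 and each is 1 library; the share is 12.6% or more in the mutant and at most 2.56% in w1118, and the ratio is 14.6 or more against at most 3.69.

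Sod2, the mitochondrial superoxide dismutase, lies on chromosome arm 2R (minus strand). The listed isoform FBtr0345492 (2R, 16772785 to 16773915; 1015 bases) shares its start, its 217 codons and its intron with the other annotated isoform (FBtr0087078), and it ends 131 bases farther at the 3′ end. It was measured at 18.1 and 21.9 TPM in mutant replicates 1 and 2 and, in the same order, at 3.74 and 5.44 TPM in w1118. Both mutant libraries were higher, the lower one 3.32 times the higher w1118 library. The log2 change was 1.92 ± 0.36 (SE), the largest among the 5 members, with limma adjusted p = 0.00025 list-wide and 0.0051 annotation-wide. The fold of means ran from 3.67 to 5.34 when 1 library was left out, and the list-wide adjusted p from 0.0064 to 0.039. By size of log2 change it was 156th of the 1036 transcripts listed as higher. FBtr0087078 was not listed, so these values describe the isoform with the longer 3′ end and not the whole gene.

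Trx2, the thioredoxin, lies on the plus strand of chromosome arm 2L. The listed isoform FBtr0079840 (2L, 9613414 to 9616047; 790 bases) encodes 106 codons like the other annotated isoform, FBtr0079839, and is shorter at both ends; 19 of its bases are its own. It was measured at 493 and 598 TPM in mutant replicates 1 and 2 and, in the same order, at 279 and 275 TPM in w1118. Both mutant libraries were higher, the lower one 1.76 times the higher w1118 library. The log2 change was 0.97 ± 0.24 (SE; limma adjusted p = 0.0022 list-wide and 0.046 annotation-wide). The list-wide adjusted p stayed between 0.015 and 0.043 with 1 library left out, and the fold of means between 1.78 and 2.16. Trx2 and Gclm were among the more abundant transcripts of the list, 60th and 89th by mean TPM of 1761, where the median transcript had a mean of 10.1 TPM.

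The order of the members by level in w1118 was Trx2, Gclm, Gclc FBtr0340139, Sod2 and Gclc FBtr0340138, and no neighbours in that order overlapped over the w1118 libraries. In the mutant Sod2 and Gclc FBtr0340139 changed places, with means of 20 ± 2.68 and 17.5 ± 4.22 TPM (SD, n = 2). Sod2 was above Gclc FBtr0340139 in each mutant library, at 18.1 against 14.5 TPM and 21.9 against 20.5 TPM, while their ranges over the mutant libraries overlapped. All 5 members were higher in the second mutant library than in the first, as were 81.7% of all listed transcripts, and 4 of the 5 were higher in w1118 replicate 1 than in w1118 replicate 2, as were 69.9%. The exception was Sod2.

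**Figure D4:**
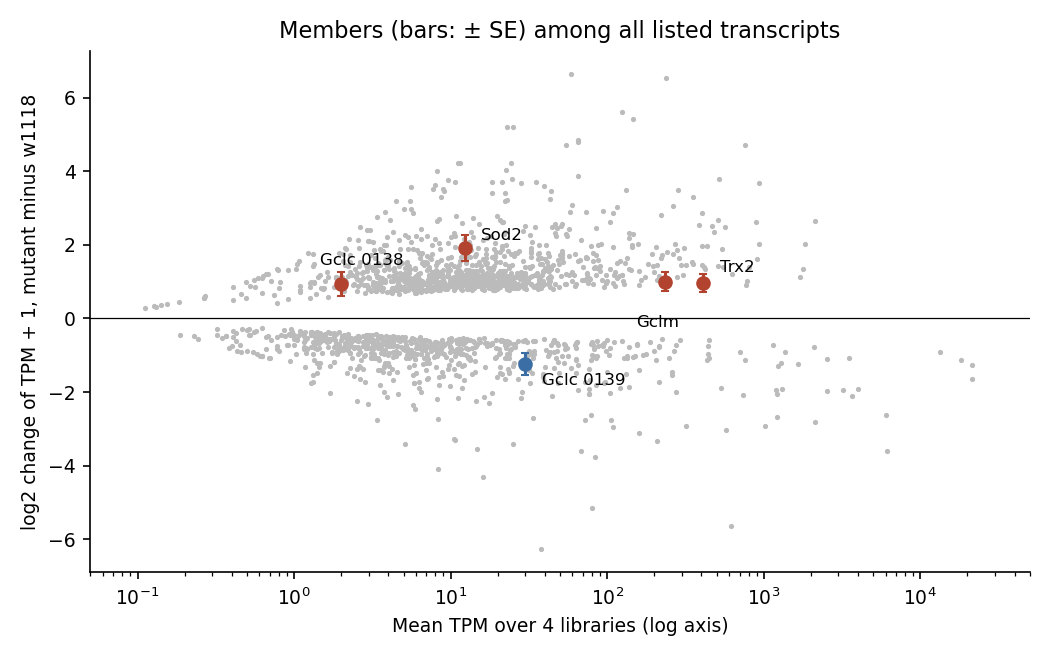
The log2 change of TPM + 1 (mutant minus w1118) against the mean TPM over the 4 libraries (log axis) for all 1761 listed transcripts (grey), with the 5 members in colour and bars of ± 1 SE. The gap around 0 reflects the selection of the list; Gclm, Trx2 and Gclc FBtr0340138 lie at 1.0, 0.97 and 0.94, below the median of 1.15 of the transcripts listed as higher, and Sod2 lies above it at 1.92.

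Of the listed transcripts whose gene has at least 2 annotated isoforms (1137), 13.5% are the only isoform of their gene with the farthest 3′ end, 11.1% among those listed as higher and 16% among those listed as lower. Of the members 2 of 5 are, Gclc FBtr0340138 and Sod2 FBtr0345492, and both stood higher in the mutant. For Gclm, Sod2 and Trx2 the other isoform was not listed, and 5 of the 10 annotated isoforms of the 4 genes were listed in all. No other annotated gene overlaps any of the 4 genes on either strand.

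The transcripts with the most similar profile over the 4 libraries were found by the root mean square difference of log2(TPM + 1) after each transcript was centred on its mean. For Trx2 they were CG11454 and CG10343 (0.025 and 0.026), for Gclm an Hn transcript and LSm1 (0.043 and 0.05), and for Sod2 Crys and CG15126 (0.071 and 0.084). For Gclc FBtr0340138 they were CG33331 and fiz (0.038 and 0.041). For Gclc FBtr0340139 they were a transcript of Men (FBtr0082661), which encodes malic enzyme, and C1GalTA (0.047 and 0.05). With 4 libraries in 2 groups many profiles are alike, and the values describe likeness only.

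Around the members, lists of 76 further genes for glutathione, cysteine, peroxide, thioredoxin and NADPH metabolism, their regulators and the less studied glutathione transferase classes had 28 listed transcripts of 22 genes. Of these 20 were higher and 8 lower. List-wide 20 higher and 7 lower passed limma, beside 53.7% and 23.4% of all listed transcripts. Annotation-wide 11 rose and 2 fell, beside 22.0% and 8.69%. With transcripts of equal TPM in all 4 libraries counted once (Gss1 with Gss2, and a pair of MsrA transcripts), there were 26, 19 higher and 7 lower, of which 11 rose and 1 fell. The median log2 change was 1.16, beside 0.86 over all listed transcripts. Most of the listed neighbours thus lay on the higher side, as did 1036 of the 1761 listed transcripts.

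In glutathione synthesis and breakdown, 5 of 8 genes were listed, and besides Gclm no transcript of them passed annotation-wide. Glutathione synthetase, which adds glycine in the second step, has a pair of near-identical genes, Gss1 and Gss2, which were listed with the same TPM in each library and count as 1 measurement: 6.36 and 8.49 TPM in mutant libraries beside 2.73 and 2.68 TPM in w1118 ones (annotation-wide by limma, adjusted p = 0.24). CG17636 was lower, at 5.25 and 4.63 against 12 and 10 TPM (annotation-wide adjusted p = 0.43). In each case the genotypes did not overlap, as held for 94.8% of the table.

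Cysteine supply had 5 of 8 genes listed, of which 3 rose, beside 22.0% of all listed transcripts. Cbs (cystathionine beta-synthase) and Cth (cystathionine gamma-lyase) make cysteine from homocysteine. Cbs stood at 12.5 and 9.29 TPM in the mutant and at 0.506 and 0.716 TPM in w1118 (log2 change 2.88 ± 0.37 SE, annotation-wide adjusted p = 9.7e-05 by limma). Cth rose from 39.1 ± 2.89 to 130 ± 6.57 TPM (SD, n = 2; annotation-wide adjusted p = 0.00052). Gnmt, which uses up S-adenosylmethionine, rose from 0.938 ± 0.596 to 6.56 ± 0.00952 TPM. Sardh was higher and Sam-S, which makes S-adenosylmethionine, lower without passing annotation-wide (adjusted p = 0.10 and 0.81).

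Among superoxide dismutases and catalases, the genes Sod1, Sod3, Rsod, Cat and Irc were not listed. Both listed transcripts of Ccs, the copper chaperone of the cytosolic superoxide dismutase, were higher without passing annotation-wide: FBtr0300944 at 30.1 and 32 against 12.4 and 14.6 TPM, and FBtr0333068 at 16.5 and 12.5 against 5.79 and 4.57 TPM (adjusted p = 0.080 and 0.10). Beside Trx2, only Trxr1, the thioredoxin reductase, was listed among 9 genes of that system, at 20.7 and 29.9 TPM in the mutant beside 11 and 10.6 TPM for w1118 (adjusted p = 0.13 annotation-wide). Of 10 peroxiredoxin and glutathione peroxidase genes 1 was listed, the peroxiredoxin CG12896, which rose from 1.01 ± 0.0319 to 6.2 ± 0.995 TPM. In these groups each listed transcript was higher in both mutant libraries. The genotypes did not overlap, in either direction, for 94.8% of the table.

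The repair reductases went both ways. MsrA reduces oxidised methionine, and 2 of its transcripts (FBtr0075553 and FBtr0330177), listed with the same TPM and so 1 measurement, fell from 146 and 102 TPM in w1118 to 33.8 and 24.4 TPM in the mutant (log2 change -2.05 ± 0.28 SE, annotation-wide limma adjusted p = 0.00021). The third MsrA transcript and Sesn, which encodes sestrin, were lower and SelR, the other methionine sulphoxide reductase, was higher, none of them passing annotation-wide (adjusted p = 0.087, 0.60 and 0.43). Of the regulators only Keap1 was listed, at 0.698 and 2.04 TPM in the mutant and at 3.25 and 2.58 TPM in w1118 (limma adjusted p = 0.053 list-wide and 1 annotation-wide). cnc, maf-S and foxo were not listed.

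NADPH, the reductant that thioredoxin reductase uses, comes in part from the pentose phosphate pathway. Of 8 genes of NADPH supply 5 were listed, and 4 of their 7 transcripts rose, beside 22.0% of all listed transcripts. The genes Zw, Pgls and Nmdmc were not listed, so their levels are unknown. Taldo (transaldolase) rose from 231 ± 40.7 to 854 ± 107 TPM and Pgd (6-phosphogluconate dehydrogenase) from 116 ± 17.7 to 280 ± 12.1 TPM (SD, n = 2; annotation-wide limma adjusted p = 0.00011 and 0.0058). An Idh transcript (FBtr0333058; isocitrate dehydrogenase) rose from 0.411 ± 0.355 to 3.71 ± 0.826 TPM. Men, like Gclc, had 1 isoform on each side: FBtr0330025 rose from 49.9 ± 5.29 to 105 ± 14.4 TPM, while FBtr0082661 stood at 5.34 ± 1.75 against 14.2 ± 3.84 TPM in w1118 (annotation-wide adjusted p = 0.045 and 0.16).

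Glutathione transferases, which consume glutathione, were higher throughout the listed transcripts. All 6 listed delta and all 10 listed epsilon glutathione transferase transcripts rose, with median log2 changes of 2.76 and 1.92. So did the 3 of the other classes, both of GstO2 and 1 of GstS1. Of all listed transcripts 22.0% rose. The listed transferase transcripts came from 5 of 11 delta, 9 of 14 epsilon and 2 of 12 other genes, and the remaining genes were not listed. GstO2 FBtr0076653 stood at 257 and 251 TPM in the mutant and at 55.5 and 68.7 TPM in w1118.

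**Figure D5:**
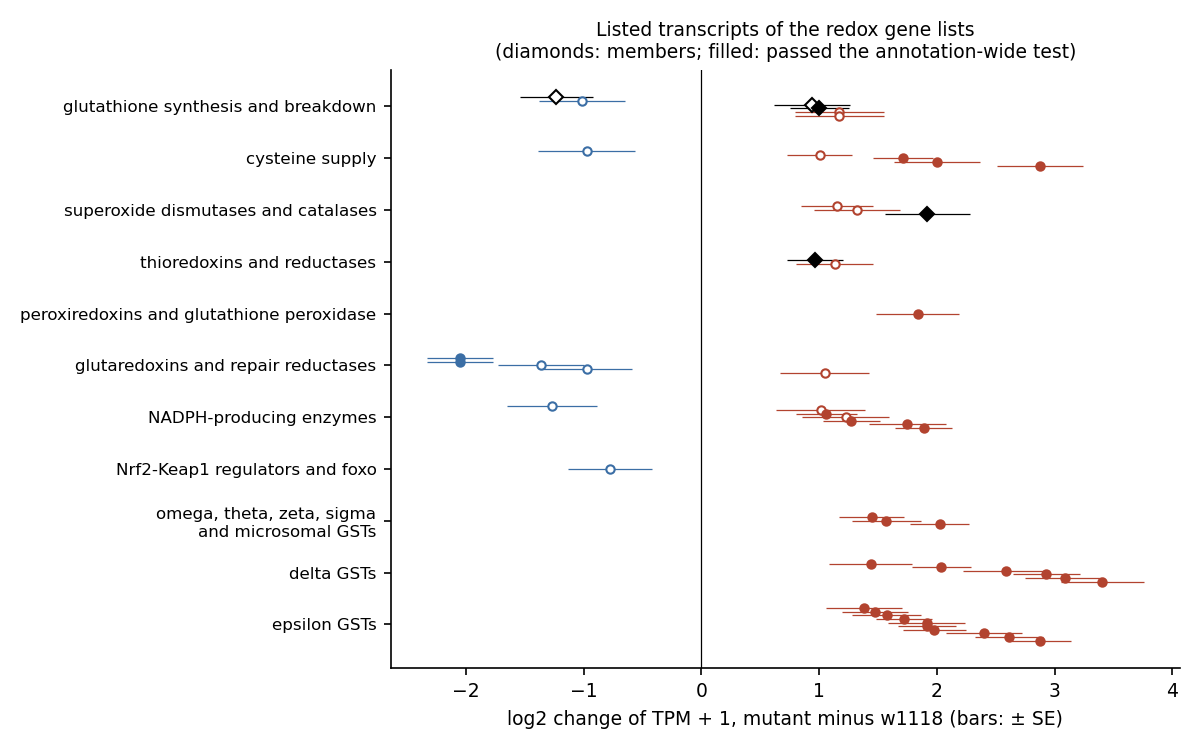
The log2 change of TPM + 1 (mutant minus w1118, bars ± 1 SE) of each listed transcript of the redox gene lists; diamonds are the members, red circles other transcripts listed as higher and blue as lower, and filled symbols passed the annotation-wide test. The 16 delta and epsilon transferase transcripts are all filled and higher, and MsrA is the only gene with filled symbols on the lower side. Of all listed transcripts 22.0% passed this test as higher and 8.69% as lower.

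Markers of other cell types were measured in the same libraries. Of 13 Malpighian tubule marker genes 4 were listed, with a summed level of 231 and 251 TPM in the mutant and 229 and 203 TPM in w1118. Oatp58Db and ZnT35C rose, Oatp58Dc was higher without passing annotation-wide, and both salt transcripts were lower; the defining marker Uro was not listed. Of 13 fat body markers 2 were listed (summed 44.1 and 69.3 TPM against 58.7 and 42.7 TPM): Tsf1 rose from 9.66 ± 0.593 to 34 ± 6 TPM (SD, n = 2), and Desat1 was lower without passing annotation-wide. Of 11 haemocyte markers 2 were listed (summed 1.2 and 1.32 against 0.957 and 0.557 TPM): an srp transcript rose, from values at or near 0 in w1118 to 1.03 and 0.925 TPM, and Hml was lower without passing. Of 10 visceral muscle markers 2 were listed (summed 96.8 and 136 against 233 and 152 TPM): Act57B was lower and an Mhc transcript higher, both without passing annotation-wide. Of 12 progenitor and enteroendocrine marker genes 5 were listed, with 8 transcripts, all lower in the mutant (24.5 and 33.2 against 60.5 and 52 TPM). Of these transcripts 3 passed list-wide and 0 annotation-wide by limma. Of all listed transcripts 77.1% passed list-wide, 23.4% as lower, and 30.7% annotation-wide, 8.69% as lower. None of 11 ovary markers was listed. Only transcripts with a deposited p under 0.05 were listed, so an unlisted marker, Uro included, may still be expressed at an unknown level. The part of cell composition in the members' values was not tested.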

How the data were processed

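The authors deposited 1 table of transcripts with a p-value and a TPM column per library, per the file headers. Cufflinks and DESeq are named, without role or version, per the submitters' processing notes; no aligner, genome build or annotation is stated, nor whether the deposited p-values were adjusted. Depth cannot be read from TPM, and counting intervals were not computed.

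Of 1761 transcripts, 1741 matched the Ensembl release 115 annotation (BDGP6.54), from which positions (1-based) and structures come. As the file held TPM and not counts, limma 3.58.1 (R 4.3.3) with a mean-dependent prior variance was run on log2(TPM + 1) over the whole table, mutant against w1118, without replicate block. Adjusted p-values are Benjamini-Hochberg. Fold changes on this scale understate those of low transcripts. Single measures were compared by exact permutation over the 4 libraries. The scripts were tested on simulated data. Members, lists and the annotation-wide test were chosen with earlier results of these data known. Named transcripts are the members, Kdm5, listed members of the lists (up to 6 called per list, plus those not called; in the transferase lists only examples), and 2 nearest profiles per member. No sequence is printed.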

Additional observations from a re-analysis of the deposited data

How the results depend on the processing

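The 5 members kept their direction under all alternatives run. These were pseudocounts of 0.1 and 0.5, a mean of at least 1 TPM and scaling to the TPM outside the list. A constant prior variance, a replicate block and each library left out were the others. The kept direction was largely fixed beforehand and adds no support. The genotypes did not overlap for any member, so no pseudocount or left-out library could reverse a direction. The filter, the prior variance and the replicate block leave the log2 change itself as it was. Scaling did change the values, but by little beside the members' log2 changes. Of 55 alternative values, 47 kept their side of the threshold of 0.05. Counting every annotated transcript as a test left 540 of 1358 listed transcripts, and ended the calls of Gclc FBtr0340139 (log2 change -1.23) and FBtr0340138 (0.94). Deviations of same-numbered libraries from their group means correlated at -0.188, which with 2 libraries per group cannot show whether the numbers pair the libraries. The replicate block gave 933 calls and ended that of Gclc FBtr0340138 (0.94, adjusted p = 0.10), and the crossed replicate block, chosen after seeing the data, gave 1666. With 1 library left out, the count of calls ran from 580 to 1239, the log2 change of FBtr0340138 from 0.86 to 1.02, of FBtr0340139 from -1.47 to -1.0, of Gclm from 0.81 to 1.19, and the calls in the redox lists from 31 to 43 (48 with all). Annotation-wide, 3 members passed. This was 4 with a pseudocount of 0.1 or 0.5, where Gclc FBtr0340139 also passed, 2 with scaling and 3 with the replicate block. It was 1 with the mean of at least 1 TPM, 1 with a constant prior variance, 5 with the crossed block, and 0 to 0 with a library left out; these combinations were also added after seeing the data. Scaling to the TPM outside the list moved the median log2 change by -0.131. Trx2 then stood at 0.82, Gclm at 0.85, Sod2 at 1.79, FBtr0340138 at 0.85 and FBtr0340139 at -1.38, and Sod2 and FBtr0340139 passed annotation-wide. The cause of these differences was not tested. With 2 libraries per group, precision is limited by their number, and isoform levels by how shared reads were divided.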
